A study of Drosophila montana with 9 samples.

Results

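On the candidate gene microarray of *Drosophila montana*, the hearing organ genes *tilB*, *nan* (nanchung) and *ato* (atonal) were 3 of the 110 genes with a probe. A further hearing organ gene, *btv*, is given beside them. Their probes were found by gene name or full name in the probe names, and they made up 7 of the 208 distinct experimental probes on the array, with 1 probe for *tilB*, 2 for *nan* and 4 for *ato*. RNA came from whole bodies of 13 females per sample, and the 9 samples were hybridized to 9 one-colour arrays, 3 for each group. All females came from the isofemale line O3F66 from Oulanka, so that they represent 1 laboratory line, and the line had been kept in continuous light at 19°C. Diapausing females had spent 14 days at 16°C with 16 h of light daily. Reproducing females had the same age and temperature but a day length of 24 h, and young females were taken within 1 day of emergence from the culture at 19°C and 24 h of light. Between the 14-day-old groups the light regime and the reproductive state changed together. Between young and reproducing females age, temperature and reproductive state did. In each comparison these cannot be told apart. Group names are abbreviated in the labels, which do not say how the replicate pools were separated, so p-values measure the spread between these samples.

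Flies hear with chordotonal organs, stretch receptors built from ciliated neurons and their supporting cells, of which Johnston's organ in the antenna is the one that senses courtship song. In *D. melanogaster*, *ato* encodes the basic helix-loop-helix factor that starts the development of chordotonal organs and of the founder photoreceptors of the eye. *nan* encodes a TRPV channel subunit of the sensory cilium, and *tilB* (touch insensitive larva B) a leucine-rich repeat protein needed for the dynein arms of motile cilia, which are found in chordotonal neurons and in sperm tails. Males that lack *tilB* are deaf and sterile.

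Each probe was a 60-base oligonucleotide, and the sequences are shown because every level given here rests on them. The array carried 1 *tilB* probe and 2 *nan* probes, which did not overlap each other, given 5′ to 3′ as they stand on the array.
TilB_1F: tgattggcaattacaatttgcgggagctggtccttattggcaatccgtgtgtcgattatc
Nanchung_1F_1L: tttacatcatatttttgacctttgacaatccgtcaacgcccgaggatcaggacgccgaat
Nanchung_1F_2L: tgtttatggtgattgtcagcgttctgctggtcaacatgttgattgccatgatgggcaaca
The *ato* probes are shown because 2 of them read the same stretch of the gene from opposite strands. Capitals mark the 42 bases of Atonal_1_3L that are the reverse complement of the 42 bases in capitals of Atonal_1_3L_K.
Atonal_1_1L: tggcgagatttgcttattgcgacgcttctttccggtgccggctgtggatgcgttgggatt
Atonal_1_2L: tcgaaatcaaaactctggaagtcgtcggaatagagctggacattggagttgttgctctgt
Atonal_1_3L: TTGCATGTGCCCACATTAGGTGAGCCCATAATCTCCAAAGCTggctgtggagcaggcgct
Atonal_1_3L_K: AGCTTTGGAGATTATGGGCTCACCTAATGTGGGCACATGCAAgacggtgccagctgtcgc
The GC content was 45% for the *tilB* probe and both *nan* probes, 45% for Atonal_1_2L and 55% for the other *ato* probes, against a median of 45% over all 208 probes (31.7% to 65%). Read as printed, the *tilB* probe had 2 reading frames without a stop codon and its reverse complement had 1. Nanchung_1F_1L had 1 open frame as printed and 0 on the other strand, and Nanchung_1F_2L had 2 on each strand. Atonal_1_3L had 1 open frame as printed and 2 on the other strand. Which strand of the *ato* messenger RNA each probe matches was not determined here. Labelled RNA copies 1 strand, so through the shared bases at most 1 probe of the opposite-strand pair can report the messenger. The *ato* counts below pool all probes whatever their strand, so they are counts of spots rather than levels of the messenger. The tests and the gene values of *ato* share this limit. The gene values leave Atonal_1_3L_K out, and whether the probes they rest on can report the messenger is not known here. The symbols *tilB*, *nan* and *ato* are all present in the RefSeq annotation of the *D. montana* assembly ASM3504440v1. The array files name no genome build, and the positions of the probes were not analysed here. According to the methods, probes were designed in exon regions.

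The levels are raw mean signals in scanner units unless another scale is named. The negative control spots, 77 per array, had means between 54.1 and 68.1 and their SD was 2.20 to 12.7, except for 20.4 on reproducing replicate 40. Between 120 and 147 of the 197 probes of the deposited value table were well above background per array by the mark that Feature Extraction sets. The *tilB* probe was so marked on 5 of 9 arrays, the 2 *nan* probes on 0 arrays, and the *ato* probes on 0 to 2 arrays each.

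*tilB* was highest in reproducing females. Its raw signal there was 231 in replicate 22, 192 in replicate 23 and 163 in replicate 40, and all 3 spots were well above background. In diapausing females it was 123 in replicate 27, 69.5 in replicate 42 and 94.9 in replicate 43, and replicate 42 was not well above background. In young females it was 77.1 in replicate 12, 59.3 in replicate 16 and 56.0 in replicate 17, with 0 of 3 arrays well above background. The reproducing arrays lay above all others, and the diapausing and young arrays overlapped. The group means were 195 ± 34.2 in reproducing, 95.9 ± 26.8 in diapausing and 64.1 ± 11.3 in young females (SD, n = 3). After subtraction of the mean of the negative controls of each array, these became 133 in reproducing, 28.3 in diapausing and 4.75 in young females.

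The *tilB* spot exceeded all 77 negative control spots on reproducing replicates 22 and 23 and on diapausing replicates 27 and 43. On reproducing replicate 40 it exceeded 76 of them, since 1 negative control spot reached 175 on that array. On diapausing replicate 42 it exceeded 57, and on young replicates 12, 16 and 17 it exceeded 75, 67 and 30. The young females and diapausing replicate 42 thus gave *tilB* signals within the range of spots that match no fly gene. So did reproducing replicate 40, through that 1 bright control spot alone.

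**Figure D1:**
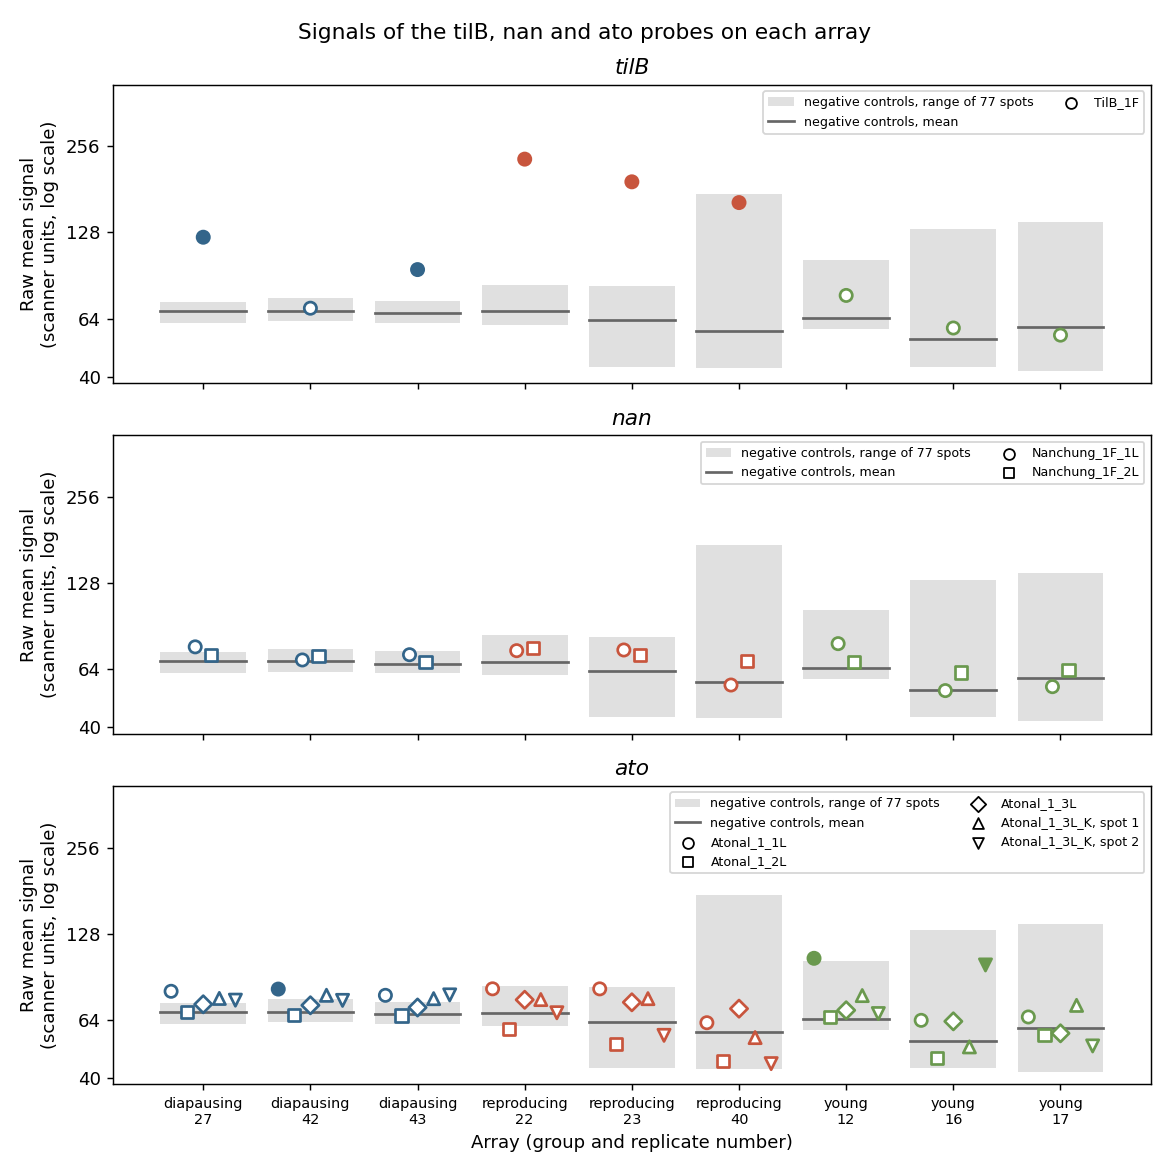
Raw mean signal (log axis, scanner units) of each *tilB*, *nan* and *ato* spot on the 9 arrays, with filled symbols for spots marked well above background, grey bars for the range of the 77 negative control spots and grey lines for their mean. The reproducing *tilB* spots lie at 163 to 231, whereas the *nan* spots lie at 53.8 to 78.5 and the *ato* spots at 44.9 to 105.

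Reproducing females were compared with young females for changes with age and maturation, and *tilB* was among the genes that rose. In whole-body samples, fewer cells of a type and less RNA per cell cannot be told apart. On the scale of the variance stabilizing normalization (VSN, log2), *tilB* was at 7.44, 7.14 and 6.84 in reproducing replicates 22, 23 and 40 and at 5.03, 4.77 and 3.95 in young replicates 12, 16 and 17. The normalized groups did not overlap, as was the case with the reproducing group higher for 17 of the 208 probes (8.17%). The log2 fold change was 2.56 (SE 0.52, 95% interval 1.38 to 3.74), which is 5.88-fold, and limma called it with a Benjamini-Hochberg adjusted p = 0.0315 over the 208 probes. A probe was called where the fold change was over 2 with an adjusted p below 0.05, and limma called 10 of the 208 probes in this comparison (4.81%), of which 3 were higher in reproducing females (1.44%). The *tilB* probe had rank 2 by log2 fold change among the 208 probes. With the probes averaged per gene, the adjusted p over all genes was 0.0251, and 9 genes were called (8.33%).

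Since no young array measured *tilB* well above background, the fold change is better given as a bound. On each young array, *tilB* was set to the dimmest normalized signal still well above background (4.91 to 5.22) where it lay under it, and by this measure it was at least 4.21-fold higher in reproducing than in young females. The bound was between 3.39-fold, without reproducing replicate 40, and 4.64-fold, without young replicate 12. At the level of probes, the adjusted p rose above 0.05 in 6 of 9 fits with 1 array left out. These were the fits without diapausing replicate 43, reproducing replicates 22 and 23 or young replicates 12, 16 and 17. The adjusted p reached 0.171 without young replicate 17, while the log2 fold change stayed between 2.03 and 2.89. At the level of genes, the call was lost without reproducing replicates 22 or 23 or young replicates 16 or 17. The fitted change ranged from 2.72-fold to 19.9-fold over the 15 other ways of processing, all of which called *tilB*. The lower of these values lie under the bound, which holds for VSN only.

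Diapausing females were compared with reproducing females of the same age, and *tilB* did not pass the test. Its normalized values in diapausing replicates 27, 42 and 43 were 6.43, 4.37 and 5.44, all below the reproducing values of 6.84 to 7.44. Groups did not overlap with the diapausing group lower for 11 of the 208 probes (5.29%). The log2 fold change of diapausing over reproducing females was -1.73 (SE 0.52, 95% interval -2.91 to -0.55), a 3.31-fold lower level (limma, unadjusted p = 0.00927, Benjamini-Hochberg adjusted p = 0.286). In this comparison limma called 3 of the 208 probes (1.44%), and 18 had an unadjusted p under 0.05 (8.65%). At the level of genes, the adjusted p was 0.268, and 1 gene was called (0.926%). Counted from the lowest, *tilB* had rank 3 by log2 fold change.

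The outcome of this comparison turned on the processing and on 1 array. *tilB* was called as lower in diapausing females after normexp background correction with quantile normalization (2.14-fold, adjusted p = 0.0337), with the processed signal scaled to the housekeeping genes (10.8-fold, adjusted p = 0.0338), and without diapausing replicate 27 (4.39-fold, adjusted p = 0.0300, all limma). In the other 21 alternatives the adjusted p was above 0.05, up to 0.899 without diapausing replicate 42, and the sign was the same in all 24.

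Between diapausing and young females, *tilB* was not called. The log2 fold change of diapausing over young females was 0.83 (SE 0.52, 95% interval -0.35 to 2.01; limma, adjusted p = 0.530), in a comparison in which 7 of the 208 probes (3.37%) and 2 genes (1.85%) were called. The interval includes 0, and it also leaves room for a difference of more than 2-fold. No bound is given, because diapausing replicate 42 was not well above background either. The 3 diapausing arrays spread over a log2 SD of 1.03, against 0.30 for the reproducing and 0.56 for the young arrays. On the normalized scale *tilB* was at 6.43 on replicate 27, below the 6.84 to 7.44 of reproducing females. On replicate 42 it was at 4.37, within the 3.95 to 5.03 of young females. Over all genes the mean normalized level of the diapausing arrays spread too, from 6.96 to 7.95 with replicate 27 highest. Over the reproducing arrays it spread from 6.85 to 7.78. How far the *tilB* spread follows the level of the whole array was not tested.

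Each of the 3 slides held 1 array of each group, which allowed the groups to be compared on the same glass. Reproducing females exceeded young females in normalized *tilB* signal by 2.41, 2.37 and 2.89 (log2) on slides 1, 2 and 3. They exceeded diapausing females by 1.01, 2.77 and 1.40. Diapausing females exceeded young females by 1.40 on slide 1 and 1.49 on slide 3, but not on slide 2, where the difference was -0.40. In raw signal the order reproducing, diapausing, young was seen on all 3 slides, the values on slide 2 being 192, 69.5 and 59.3. With the negative control mean of each array subtracted, diapausing and young females changed places on slide 2, at 1.48 and 5.23, and kept their order on slide 1 (55.1 and 12.6) and slide 3 (28.2 and -3.62). On the raw signals alone, an exact two-sided permutation test gave p = 0.1 for reproducing against young and for reproducing against diapausing females and p = 0.2 for diapausing against young females, where 0.1 is the smallest p that 3 arrays against 3 can give.

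**Figure D2:**
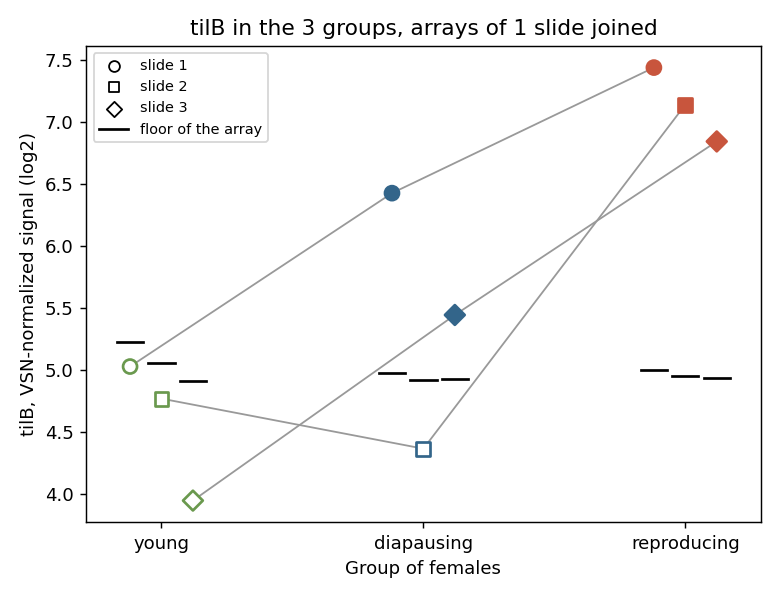
VSN-normalized *tilB* signal (log2) in young, diapausing and reproducing females, with the 3 arrays of a slide joined by a line, filled symbols for spots well above background and black bars for the dimmest normalized signal still well above background on the array. The reproducing arrays lie between 6.84 and 7.44 on all slides, and the diapausing arrays spread from 4.37 to 6.43.

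**Figure D3:**
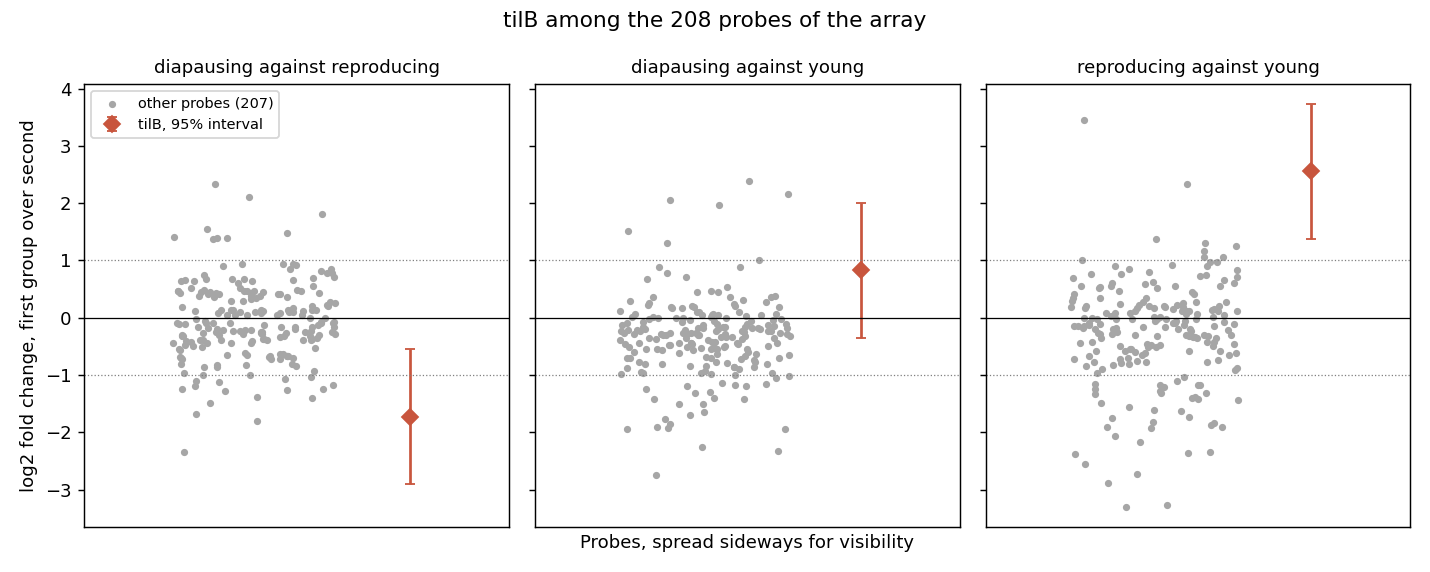
Fitted log2 fold changes of the 208 probes in the 3 comparisons (grey, spread sideways) and of *tilB* with its 95% interval (red), with dotted lines at a 2-fold change. *tilB* stands at -1.73, 0.83 and 2.56, and the interval excludes 0 for both comparisons with reproducing females.

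In the value table deposited by the authors, *tilB* stood at 462, 323 and 314 in reproducing replicates 22, 23 and 40, at 178, 11 and 68 in diapausing replicates 27, 42 and 43, and at 25, 45 and 28 in young replicates 12, 16 and 17. The order of the arrays was close to that of the scanner values, with the reproducing arrays highest. The scale of this table is not given in the sources used here, and its columns differ in level. Their medians were 251, 215 and 238 in reproducing, 356, 82 and 118 in diapausing and 182, 266 and 236 in young females, in the same order of replicates. The *tilB* values of the diapausing arrays thus rank as the medians of their columns do. Its columns followed the background-subtracted intensities closely on 8 arrays (r of at least 0.998 across probes, log2 values) and less so for reproducing replicate 40 (0.916).

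*nan* was not marked well above background in any group. Nanchung_1F_1L gave 76.5, 68.9 and 71.9 in diapausing replicates 27, 42 and 43, 74.2, 74.6 and 56.3 in reproducing replicates 22, 23 and 40, and 78.5, 53.8 and 55.5 in young replicates 12, 16 and 17. The 3 groups overlapped. Nanchung_1F_2L gave 71.7, 70.9 and 67.9 in diapausing, 76.1, 71.7 and 68.4 in reproducing and 67.9, 62.3 and 63.4 in young females, in the same order of replicates. The young signals of this probe were just below the others, but on the normalized scale they were above those of diapausing females, at 4.49 to 4.95 against 4.36 to 4.44. None of the 18 *nan* spots was marked well above background, 14 of them lay within 2 SD of the negative control mean of their array, and 1 exceeded every negative control spot, that of Nanchung_1F_1L on diapausing replicate 27. The 3 lowest signals of Nanchung_1F_1L were on the 3 arrays with the lowest negative control means (54.1 on young replicate 16, 57.7 on reproducing replicate 40 and 59.6 on young replicate 17).

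*ato* was seldom marked, with 3 of its 45 spots well above background. By the negative control spots it stood out more often, since 9 of the 45 spots exceeded every negative control spot of their array and 14 lay more than 2 SD above the negative control mean. Of these 9 spots, 8 were on diapausing arrays and 1 on a young array, and the negative controls of the diapausing arrays had the smallest SD (2.20 to 2.72, against 4.03 to 20.4 on the others). Atonal_1_1L carried 2 of the 3 marks. It gave 80.4, 81.9 and 77.8 in diapausing replicates 27, 42 and 43, all above the highest negative control spot of their arrays, though only replicate 42 was marked. In reproducing replicates 22, 23 and 40 it gave 82.0, 82.0 and 62.4, with 0 arrays marked, and in young replicates 12, 16 and 17 it gave 105, 63.6 and 65.4, of which replicate 12 was marked. The groups overlapped, and the highest value rested on 1 young array.

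Atonal_1_2L lay below the negative control mean on 7 of 9 arrays. It gave 68.2, 66.5 and 66.1 in diapausing, 59.4, 52.5 and 45.8 in reproducing and 65.5, 46.9 and 56.4 in young females. The diapausing signals were higher than the reproducing ones, but the negative controls were too, with means of 68.1, 68.1 and 66.7 against 67.7, 63.0 and 57.7. This was the only *nan* or *ato* test with an unadjusted p under 0.05 (limma, 0.0460, adjusted p = 0.538). It compares values on both sides at or under background, and no fold change is given for it.

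Of the opposite-strand pair, 1 spot was marked well above background. Atonal_1_3L gave 72.4, 71.8 and 70.6 in diapausing, 75.1, 73.6 and 69.9 in reproducing and 69.0, 63.1 and 57.3 in young females, with 0 of 9 arrays marked. The raw signals of young females were below the others, whereas the normalized ones, at 4.09 to 4.99, overlapped with the 4.42 to 4.56 of diapausing females. Atonal_1_3L_K was spotted 2 times on each array, and its first spot ranged from 51.4 to 77.9 with 0 arrays marked. On diapausing replicates 27, 42 and 43 this spot gave 75.9, 77.9 and 75.8 and exceeded all 77 negative control spots. Its other spot ranged from 44.9 to 99.4, and the highest value, on young replicate 16, was the only one marked. It exceeded all 77 on diapausing replicates 27 and 43, at 74.9 and 78.1. The copies of this probe stood at 51.4 and 99.4 on that array, so that 1 spot alone carried the mark.

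Over the 6 probes of *nan* and *ato* and the 3 comparisons, limma called 0 of 18 tests, with a lowest adjusted p of 0.314. The same count of 0 was found in all 72 results under the alternatives that could test them. These counts do not show that *nan* and *ato* were unchanged, because neither gene was marked well above background over a whole group.

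*btv* (beethoven), which in *D. melanogaster* encodes a dynein heavy chain for transport within the cilium of chordotonal neurons, was the remaining hearing organ gene on the array. Its 3 probes gave signals of 42.9 to 73.6, with 0 of 27 spots well above background and 0 of 9 tests called (lowest adjusted p = 0.140, 1 test at an unadjusted p under 0.05). By the mark of Feature Extraction, *tilB* alone of these 4 genes was well above background on every array of a group.

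The related genes on the array were counted in the same way. Limma called 2 genes as higher in reproducing than in young females (1.85%), *tilB* and *Hsp26*, so that a count of 0 in a short list is near the background. It called 7 genes as lower. A list of 5 hearing genes held *btv* and 4 genes of Johnston's organ better known from the eye (*trp*, *Rh5* and *ninaE*) or from gap junctions (*shakB*). In reproducing against young females, 0 of the 5 were called as higher and 1, *shakB*, as lower, a call lost without reproducing replicates 23 or 40 or young replicates 16 or 17. Their median log2 fold change was -1.18, beside -0.14 over all genes tested, and it was -0.27 without reproducing replicate 40, beside 0.00213 over all genes. Of 11 other courtship genes, which again include *btv*, 0 were called as higher and 1 as lower, with a median of -0.06. This was *Ddc*, which encodes the dopa decarboxylase of dopamine and cuticle synthesis, and its call was lost without young replicates 16 or 17.

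Between diapausing and reproducing females 0 genes of either list were called, with medians of 0.38 and -0.19 beside -0.03 over all genes. The first of these medians is the value of *btv* itself, which was at background, and it was -0.03 without reproducing replicate 40. In the other list 1 gene, *tws*, was called as lower without diapausing replicate 27. Between diapausing and young females, 0 of the 5 and 1 of the 11 (*Ddc*, lower) were called. *shakB* was called as lower without reproducing replicate 40 or young replicate 12, and the call of *Ddc* was kept only without diapausing replicate 27, reproducing replicate 40 or young replicate 12. The medians were -0.54 and -0.29 beside -0.39 over all genes, and with 1 array left out they ranged from -0.95 to -0.32 and from -0.40 to -0.09.

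Genes known from other tissues were mostly not called. Of 9 genes known for RNA stored in the ovary and egg, 0 were called between diapausing and reproducing females (median log2 fold change -0.94). Over all genes tested 1 was called there (0.926%), so a count of 0 is near the background. Without diapausing replicate 27, 4 of the 9 were called as lower in diapausing females (median -1.45), beside 5 over all genes. Without diapausing replicate 42 the median of the 9 was -0.44. In reproducing against young females 1 of the 9, *Hsp26*, was called as higher (median 0.61, or 0.40 without reproducing replicate 22), beside 2 over all genes (1.85%). The mean normalized level of these genes was 6.68 to 8.51 in diapausing, 7.86 to 8.78 in reproducing and 7.43 to 7.77 in young females, and 9 of the 9 were well above background on at least 1 array.

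Reproducing replicate 40 was low over all genes, at a mean normalized level of 6.85 against 7.64 and 7.78 on the other reproducing arrays. It also had the fewest probes well above background (120), and it stood further apart in the photoreceptor genes. The mean normalized level of these 12 genes was 6.70 on that array and 9.30 and 9.32 on the other reproducing arrays. Their medians were 0.60 between diapausing and reproducing and -1.47 between reproducing and young females with 0 called, and without this array they were -0.24 and -0.47. Without diapausing replicate 27 the first was 0.14, and *ninaC* was called as lower in reproducing than in young females. The 9 neuronal genes had medians of -0.19 and -0.25, which with 1 array left out ranged from -0.26 to -0.07 and from -0.58 to -0.20. Of these, 2 were called as lower in reproducing than in young females (*slo* and *shakB*), and neither was without young replicates 16 or 17. Over all genes 7 were called as lower in this comparison, so the count of 0 photoreceptor genes is near the background. The neuronal markers *para* and *syt* carried the mark of a signal well above background on 0 arrays. The part of these tissues in the *tilB* result was not tested.

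Over the 9 arrays, the gene whose normalized level was most like that of *tilB* was *Hsp26* (Pearson r = 0.91), a small heat shock protein gene, followed by *slmb* (0.80), which encodes an F-box protein of a ubiquitin ligase, and *dare* (0.77), an adrenodoxin reductase gene of steroid synthesis. These were the highest of 89 genes well above background on at least 3 arrays, whose median r was 0.01. *Hsp26* was likewise marked on none of the young arrays. With the same floor its mean was 8.70-fold higher in reproducing than in young females (limma over genes without the floor, adjusted p = 0.0257). This call was kept without any 1 of the diapausing arrays and lost without any 1 of the others. Between diapausing and reproducing females its log2 fold change was -1.06 (adjusted p = 0.651). The genes most like *nan* were *nonA* (0.62), *tilB* (0.57) and *Cdc37* (0.56), and those most like *ato* were *Mpk2* (0.51), *Cam* (0.51) and *inaC* (0.40), where the values of *nan* and *ato* are those of spots near background. All of these values share arrays and normalization, and they describe the 9 arrays only.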

How the data were processed

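The scanner output deposited by the authors holds an intensity for each spot of 9 one-colour arrays (mean signal, local background and processed signal), made by Feature Extraction (version 9.5.1.1 in the file headers) and not scaled between arrays. A table of processed intensities with 197 probes was also deposited and used as an alternative. Here outlier spots were left out (4 experimental spots, 0 of them of *tilB*, *nan* or *ato*) and copies of a probe averaged. VSN, written anew in R 4.3.3 after its published model (trimming quantile 0.5, 5 slices, 7 rounds), was fitted to the mean signals of the 197 probes and the 200 spike-in spots and applied to all 208 probes. The 3 comparisons were tested with limma 3.58.1 over all 9 arrays, with Benjamini-Hochberg adjustment over the 208 probes. The call required a fold change over 2 with an adjusted p below 0.05. Genes were the means of their probes among the 197. The procedure was checked on simulated data in which only probes brighter on average than *tilB* were changed. Recovery of the changes was required only at a set spread, and at the spread of the data only their direction was. The check thus does not cover signals as near background as those of *tilB*. Precision is limited by the number of arrays, 3 in each group.

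The genes and lists were chosen with earlier results of these data known. Named were all *tilB*, *nan* and *ato* probes, *btv*, the 3 genes most correlated with each member, and lists by counts and medians. Genes called within a list, 2 undetected markers and the probe pairs were named after their values were seen. Alternatives covered normalization, background, spots, probes, slide as a block, groups fitted, threshold, gene means and each array left out. Leaving out arrays in the gene lists was chosen after seeing the data. Python 3.11.15 with matplotlib 3.10.9 drew the figures. The qRT-PCR was not analysed here.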

Additional observations from a re-analysis of the deposited data

How the results depend on the processing

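The groups share no replicate numbers in the labels, so the arrays could be matched only by slide, each of which held 1 array of each group. With slide as a block, *tilB* kept its calls (limma, reproducing over young adjusted p = 0.0326). No result for *tilB* changed sign. For diapausing over reproducing females, *tilB* (log2 fold change -1.73) was called with normexp and quantile normalization (-1.10) and with scaling to the housekeeping genes (-3.44), and ranged from -2.13 (called, without diapausing replicate 27) to -1.16 with 1 array left out. For reproducing over young females it ranged from 2.03 to 2.89 with 1 array left out. The call at the level of probes was lost without diapausing replicate 43, reproducing replicates 22 or 23, or young replicates 12, 16 or 17. In the deposited table the log2 fold change was 3.51 (limma, adjusted p = 0.0281), and 3.61 (adjusted p = 0.126) without reproducing replicate 40, an alternative chosen after seeing the data. For diapausing over young females it ranged from 0.31 to 1.34 and was not called.

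The number of probes called moved more. For diapausing against reproducing females, 3 probes were called, against 5 with a trimming quantile of 0.9, 11 with the 75th percentile, 12 with normexp and the 75th percentile, 13 with normexp and quantiles, 14 with housekeeping scaling, 1 with the deposited table, 0 with only these groups fitted (12 at an unadjusted p under 0.05), 1 gene with probes averaged, and 1 to 15 with 1 array left out. For diapausing against young females it was 7, against 4 with VSN on spike-ins alone, 17 with the 75th percentile, 3 with normexp and quantiles, 4 with the deposited table, 2 with slide as a block, 2 genes with probes averaged, and 0 to 12 with 1 array left out. For reproducing against young females it was 10, against 40 with the 75th percentile, 29 with normexp and the 75th percentile, 23 with normexp and quantiles, 6 with slide as a block, 5 with the deposited table without reproducing replicate 40, and 2 to 11 with 1 array left out. With the 75th percentile the median over all probes in this comparison moved from -0.16 to 0.29, and 29 of 40 calls were higher in reproducing females, against 3 of 10, while *tilB* was higher by 4.32 (log2). The cause of these shifts was not tested. Signal near background limits *nan*, *ato* and *btv*, so their fitted fold changes are not read as changes in any setting. It also limits *tilB* in young females and on diapausing replicate 42.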

Other observations

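Besides *ato*, 5 genes on the array (*per*, *spin*, *ari-1*, *norpA* and *Hsc70-4*) had a pair of probes with 22 to 53 bases in common on opposite strands, 1 of the pair being in the deposited table and the other named with a K. In these pairs the probe of the table was well above background on 8 or 9 arrays and the K probe on 4 to 9 arrays, whereas for *ato* the counts were 0 and 1. The probe of the table was the brighter on 9 arrays for *per*, *spin*, *ari-1* and *norpA*. For *Hsc70-4* it was so on 0 arrays, with a median raw signal of 311 against 3430 for the K probe. The K probes are not part of the deposited table, and what the K stands for is not given in the sources used here.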
